A study of Mus musculus with 12 samples.

Results

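The mitochondrial genome and the Nduf genes were followed in 12 RNA libraries from the colon of mice with chemically induced colitis. The members are all rows of the deposited expression table whose gene symbol starts with mt-, 37 in number, or with Nduf, 47 in number. Together they make 84 of the 55335 rows. The mt- rows are the complete gene set of the mitochondrial chromosome, with 13 mRNAs, 2 rRNAs and 22 tRNAs. The Nduf rows are nuclear genes: 7 core subunits of complex I, 29 accessory subunits, 8 assembly factors, 1 pseudogene row, and Ndufa4 and Ndufa4l2, which carry the name for historical reasons.

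Complex I takes electrons from NADH, passes them to ubiquinone and pumps protons across the inner mitochondrial membrane. Its subunits come from separate genomes: the mt-Nd genes encode membrane subunits inside the mitochondrion, and the remaining subunits are made from nuclear genes and imported. Mitochondrial genes are read as long transcripts from each strand of the circular chromosome, and the tRNAs that lie between the mRNAs mark many of the sites where these transcripts are cleaved. The colon epithelium relies on mitochondrial oxidation of short-chain fatty acids, and the muscle layer of the colon wall is also rich in mitochondria.

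All mice were wild type (WT) and all had colitis, so no colon without colitis was among the samples. Colitis was raised with TNBS (trinitrobenzene sulfonic acid, a hapten) or with DSS (dextran sulfate sodium, a polymer that injures the epithelium), and each model was given thymopentin, a synthetic pentapeptide drug derived from a thymic protein, or normal saline. This gave 4 groups of 3 libraries, named here by agent and treatment, such as TNBS saline or DSS thymopentin. The sources used here give no strain, age, sex, dose or timing. Nothing in the labels says that the 3 libraries of a group came from separate mice, so the p-values measure only the spread between these libraries. The tissue is whole colon, and in such bulk samples fewer cells of a type and less RNA per cell cannot be told apart.

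Expression was deposited as FPKM, which corrects fragment counts for library size and for the length of the transcript, so that it is a level per length. The sources used here do not state how many reads each library had. Summed FPKM ran from 384431 to 417581 in the TNBS libraries and from 446364 to 532510 in the DSS libraries. Without the mt- rows the sums were 298709 to 315357 for TNBS and 337097 to 354946 for DSS. In both sums every DSS library lay above every TNBS library, and the main fit did not remove this difference between the models. Between 13160 and 13805 genes reached 1 FPKM. As a check of the labelled tissue, all 13 colon epithelium markers had a mean of at least 1 FPKM. Of the 7 striated muscle markers 2 did, and that list summed to 4.45 to 13.7 FPKM per library. For each gene, log2(FPKM + 1) was compared between groups with limma over the 13794 genes with a mean of at least 1 FPKM, and a gene was called at a Benjamini-Hochberg adjusted p under 0.05. Of the members, 35 mt- and 46 Nduf rows passed this filter.

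A pair of libraries stood at the ends of the mitochondrial range. The first DSS saline library held the highest value of 32 of the 35 tested mt- rows, all 13 mRNAs among them. The second TNBS thymopentin library held the lowest value of 31, again with all 13 mRNAs. Of the 36 nuclear subunits of complex I, 23 were also highest in the first DSS saline library, whereas 24 were lowest in the third TNBS thymopentin library. Counts of called members are therefore given with and without these libraries.

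The mt- rows took a large part of summed FPKM, which is not a share of reads. Their share of summed FPKM was 25%, 22.2% and 24.96% in the TNBS saline libraries and 23.2%, 20.7% and 25.8% in the TNBS thymopentin libraries. In DSS saline it was 33.3%, 28.6% and 30.2%, and in DSS thymopentin 24.5%, 25.8% and 27.7%. All 3 DSS saline libraries lay above the other 9. The group means were 24.05% ± 1.62 for TNBS saline, 23.2% ± 2.55 for TNBS thymopentin, 30.7% ± 2.41 for DSS saline and 26.01% ± 1.62 for DSS thymopentin (SD, n = 3 each). Shares sum over the members, so they are described without a test.

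The Nduf rows took far less, and their share moved less. It was 0.497% ± 0.00952 in TNBS saline, 0.482% ± 0.0341 in TNBS thymopentin, 0.530% ± 0.00181 in DSS saline and 0.519% ± 0.00266 in DSS thymopentin (SD, n = 3 each). The DSS saline libraries were again above all others, but the ratio of the DSS saline to the TNBS saline mean was 1.07 for Nduf against 1.28 for mt-. Summed Nduf FPKM was thus 2.07% ± 0.115 of summed mt- FPKM in TNBS saline and 1.73% ± 0.137 in DSS saline, without overlap between these groups. In the thymopentin groups it was 2.11% ± 0.375 for TNBS and 2.001% ± 0.124 for DSS, and these overlapped. Because mt- rows are part of every sum, a larger mt- share lowers all other shares: over the rows that are not mt-, the DSS saline to TNBS saline ratio of the Nduf share was 1.17.

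**Figure D1:**
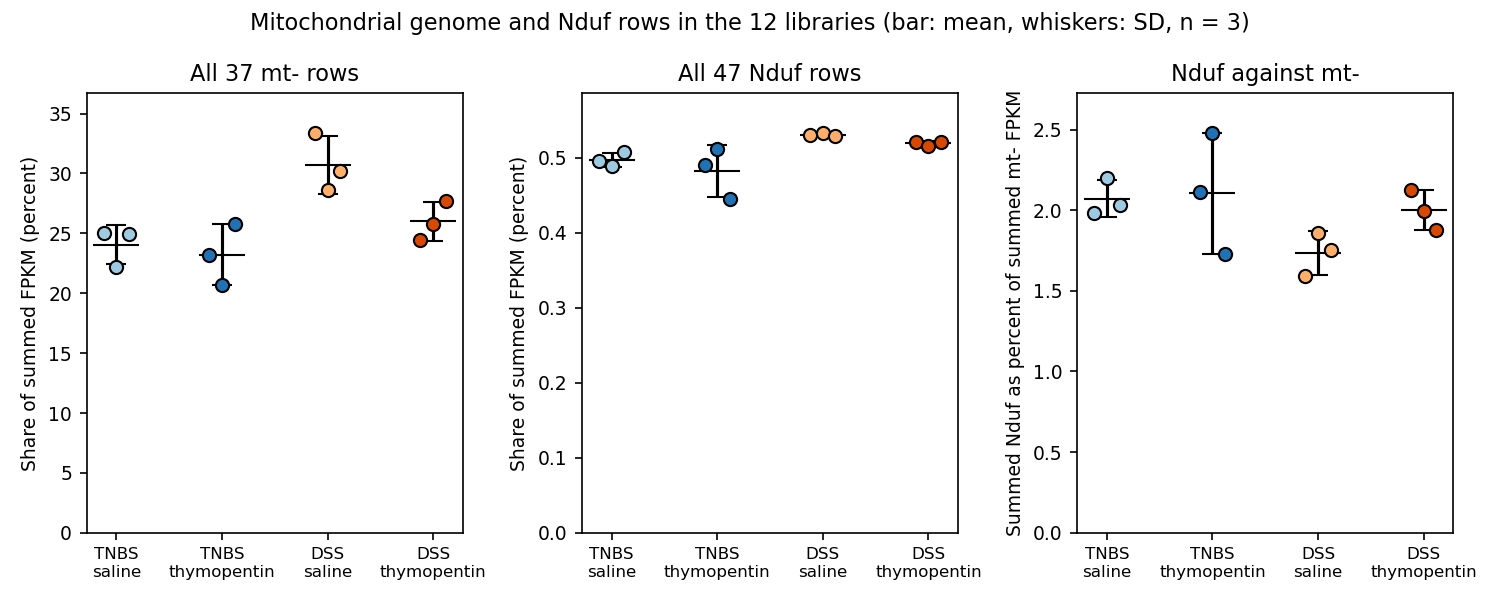
Share of summed FPKM taken by the 37 mt- rows (left) and the 47 Nduf rows (middle), and summed Nduf as a percent of summed mt- FPKM (right), by group; points are libraries, bars means and whiskers SD (n = 3). The DSS saline libraries have the highest mt- shares, 28.6% to 33.3%, and Nduf shares, and the TNBS thymopentin libraries spread most in the right panel.

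Nearly all of the mt- share was mRNA. The mRNAs took 29.6% ± 2.35 of summed FPKM in DSS saline, the tRNAs 0.701% ± 0.0400 and the rRNAs 0.406% ± 0.0313 (SD, n = 3). mt-Co1, a catalytic subunit of cytochrome c oxidase, was the highest row of the whole table in each of the 12 libraries, with a mean of 27893 FPKM. It was followed among the members by mt-Atp6 (13248 FPKM) and mt-Atp8 (12256 FPKM), subunits of ATP synthase, by mt-Co2 (11401 FPKM), and by mt-Cytb (10608 FPKM), the mitochondrial subunit of complex III. The complex I mRNAs ran from mt-Nd1 at 7723 FPKM to mt-Nd3 at 1429 FPKM, the lowest of the 13. The reading frames of mt-Atp8 and mt-Atp6 overlap, as do those of mt-Nd4l and mt-Nd4, and each pair lies on a shared mRNA, so the split of reads within a pair is uncertain.

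The make-up of the mRNA pool differed by group for some mRNAs. mt-Nd2 made up 2.83% to 3.14% of mitochondrial mRNA FPKM in the TNBS libraries and 3.39% to 3.63% in the DSS libraries. For mt-Nd3 it was 1.39% to 1.52% in DSS saline and 1.13% to 1.25% in the other groups. mt-Co1 made up 23.3% to 26.2% of mitochondrial mRNA FPKM over the 12 libraries, and mt-Co2 9.85% to 10.4%. mt-Nd6, the only mRNA read from the minus strand, ranged more widely, from 2.82% to 4.51%. Its gene lies within the span of the long plus-strand transcript. Because the strand setting of the counting is not stated, reads of that transcript may be part of its value. The rRNAs mt-Rnr1 (902.8 FPKM) and mt-Rnr2 (1075 FPKM), which form the mitochondrial ribosome, stood below every mRNA in the mean over libraries. The sources used here do not say whether ribosomal RNA was removed during library preparation.

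Nuclear complex I subunits were present at levels per length far below those of the mitochondrial subunits. In TNBS saline the median of the 7 mt-Nd mRNAs was 64.0 to 65.7 times the median of the 36 nuclear subunits within a library. This ratio was 51.6 to 71.7 in TNBS thymopentin, 79.3 to 96.5 in DSS saline and 60.3 to 79.2 in DSS thymopentin. The DSS saline libraries lay above all others, by a narrow margin over the highest DSS thymopentin library. Ndufa1, an accessory subunit of the membrane arm, was the highest Nduf row with a mean of 200.3 FPKM. The assembly factors, which help build the complex without staying in it, were low, from 2.46 FPKM for Ndufaf6 to 16.0 FPKM for Ndufaf8. Ndufa4l2, a paralog of Ndufa4, had a mean of 0.598 FPKM and was not tested.

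**Figure D2:**
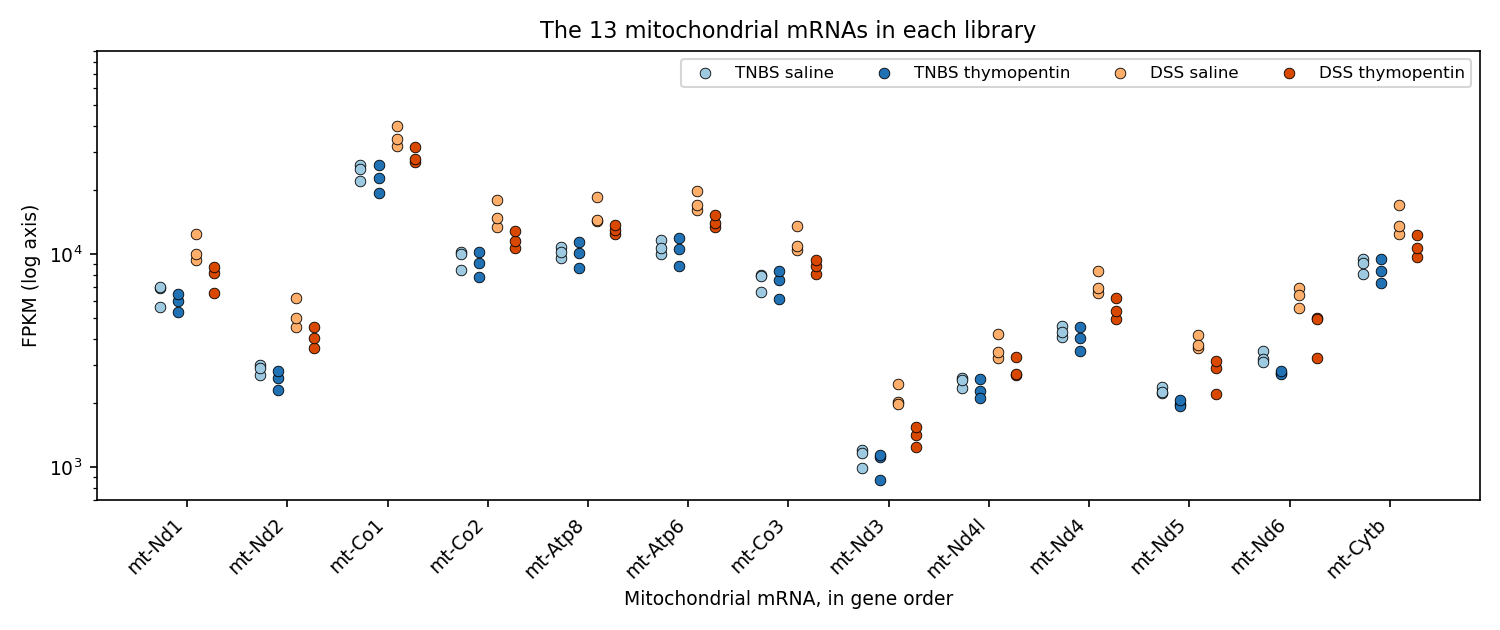
FPKM (log axis) of the 13 mitochondrial mRNAs in each of the 12 libraries, in gene order and coloured by group. For every mRNA the 3 DSS saline libraries lie above the 3 TNBS saline libraries as deposited (under quantile normalization mt-Atp8 and mt-Nd4l turn), and mt-Co1 is the highest and mt-Nd3 the lowest of the set.

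DSS and TNBS colitis were compared first in the saline groups, where they differ in the agent alone as far as the labels say. Mitochondrial mRNAs were higher in DSS: all 13 rose, with log2 fold changes from 0.53 (mt-Nd4l) to 0.94 (mt-Nd3), but under quantile normalization mt-Atp8 and mt-Nd4l turned slightly negative and only mt-Nd3 kept its call. With 11 tRNAs, 24 of the 35 tested mt- rows were called higher and 0 lower, beside 15.2% of all genes tested called higher, 31.5% lower and 46.6% in either direction. Counted by overlap, 24 of 35 were higher in every DSS than in every TNBS saline library, beside 18.8% of all genes in that direction and 37.7% in the other. The median log2 fold change was 0.71 over the mt- rows and -0.14 over all genes tested. Neither rRNA was called.

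mt-Nd3, a small membrane subunit of complex I, stood at 1208, 994.9 and 1165 FPKM in TNBS saline and at 2459, 2025 and 1987 FPKM in DSS saline. Every DSS library was above every TNBS library (log2 fold change 0.94, SE 0.14, adjusted p = 0.000589). mt-Nd6, also of the membrane arm, had 3514, 3225 and 3122 FPKM in TNBS saline against 6906, 5585 and 6449 FPKM in DSS saline. These groups did not overlap either (0.94, SE 0.17, adjusted p = 0.00127). mt-Co1 had 26103, 22002 and 25012 FPKM against 39956, 32002 and 34704 FPKM. Its groups were separate, with a smaller difference (0.54, SE 0.16, adjusted p = 0.0159).

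The other complex I mRNAs differed by 0.86 (mt-Nd2), 0.75 (mt-Nd5), 0.74 (mt-Nd4), 0.70 (mt-Nd1) and 0.53 (mt-Nd4l) on the log2 scale. Those of complex IV differed by 0.67 (mt-Co2) and 0.64 (mt-Co3), those of ATP synthase by 0.71 (mt-Atp6) and 0.62 (mt-Atp8), and mt-Cytb by 0.68. In contrast mt-Rnr2 had 1168, 1230 and 856.3 FPKM in TNBS saline and 1285, 986.4 and 986.0 FPKM in DSS saline. Its libraries were mixed (0.01, SE 0.23, adjusted p = 0.983), as were those of mt-Rnr1 (0.07, SE 0.22, adjusted p = 0.822).

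The number of mt- calls was 22 to 24 when any single library was left out, and 22 without the first DSS saline library. It was 24 after rescaling to the median ratio, 22 after rescaling to the rows that are not mt-, 15 with no filter on low values and 12 after quantile normalization. Quantile normalization gives the row at each rank the same value in every library, so mt-Co1, at rank 1 throughout, becomes 0 by construction.

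The tRNAs that differed most lie in known places on the chromosome, and their sequences are shown because the results below turn on these short genes. Each is printed 5′ to 3′ as DNA from the GENCODE transcripts of the mouse mitochondrial genome, with the anticodon in capitals. mt-Tw (tryptophan), mt-Ta (alanine), mt-Tn (asparagine), mt-Tc (cysteine) and mt-Ty (tyrosine) follow each other between mt-Nd2 and mt-Co1, mt-Tw on the plus strand and the others on the minus strand. mt-Tt (threonine) lies on the plus strand after mt-Cytb, and mt-Tl1 (a leucine tRNA) on the plus strand between mt-Rnr2 and mt-Nd1.
mt-Tw: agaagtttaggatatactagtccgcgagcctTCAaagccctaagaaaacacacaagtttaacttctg
mt-Ta: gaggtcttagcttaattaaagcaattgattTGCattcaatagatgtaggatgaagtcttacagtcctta
mt-Tn: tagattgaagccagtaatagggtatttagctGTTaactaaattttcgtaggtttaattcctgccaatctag
mt-Tc: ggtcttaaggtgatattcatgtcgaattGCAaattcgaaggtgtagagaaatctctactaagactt
mt-Ty: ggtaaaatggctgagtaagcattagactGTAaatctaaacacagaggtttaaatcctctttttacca
mt-Tt: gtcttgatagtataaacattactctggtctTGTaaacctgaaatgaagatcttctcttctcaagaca
mt-Tl1: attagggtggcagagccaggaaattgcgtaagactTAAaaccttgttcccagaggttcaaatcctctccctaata

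The 22 tRNA genes are 59 to 75 bases long, shorter than many sequencing fragments, and FPKM of such short genes is uncertain. Whether their reads came from mature tRNAs or from longer transcripts that span them was not tested. The libraries are strand-specific per the labels, but the sources used here do not state the strand setting of the counting, and a minus-strand tRNA lies within the span of the long plus-strand transcript. The highest mean was that of mt-Te (glutamate) at 918.7 FPKM and the lowest that of mt-Ts2 (a serine tRNA) at 0.0784 FPKM. The median of the tRNA means was 122 FPKM for the 8 minus-strand genes and 7.27 FPKM for the 14 plus-strand genes. mt-Ts2 and mt-Tv did not pass the filter.

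In the saline groups, 6 of the 8 minus-strand tRNAs and 5 of the 12 tested plus-strand tRNAs were called higher in DSS than in TNBS. Over all genes 15.2% were called higher, and the part of the level difference between the strands was not tested. mt-Tw stood at 13.3, 8.30 and 11.3 FPKM in TNBS saline and at 62.5, 34.1 and 58.3 FPKM in DSS saline. The groups were far apart (log2 fold change 2.11, SE 0.30, adjusted p = 0.000421). mt-Tt had 7.62, 4.17 and 3.46 FPKM against 31.5, 20 and 22.4 FPKM, again without overlap (2.11, SE 0.29, adjusted p = 0.000322).

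The 4 minus-strand neighbours of mt-Tw moved in the same direction. mt-Tn had 133, 119 and 112 FPKM in TNBS saline and 354.9, 352.4 and 327.6 FPKM in DSS saline (1.5, SE 0.21, adjusted p = 0.000367). mt-Ta differed by 1.47, mt-Tc by 1.46 and mt-Ty by 1.09, and none of these 4 tRNAs overlapped between the groups. mt-Te rose by 1.07, mt-Tl1 by 0.92, mt-Tk (lysine) by 0.85, mt-Tp (proline) by 0.83 and mt-Tg (glycine) by 0.74. Of these 11 tRNA calls all were kept under quantile normalization, unlike those of 12 of the 13 mRNAs. Under other alternatives mt-Tg was lost in 11, with an adjusted p of 0.171 without the first DSS saline library, and mt-Tk was lost in 2. Without that library mt-Tg stood at 0.49 and mt-Tk at 0.52.

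**Figure D3:**
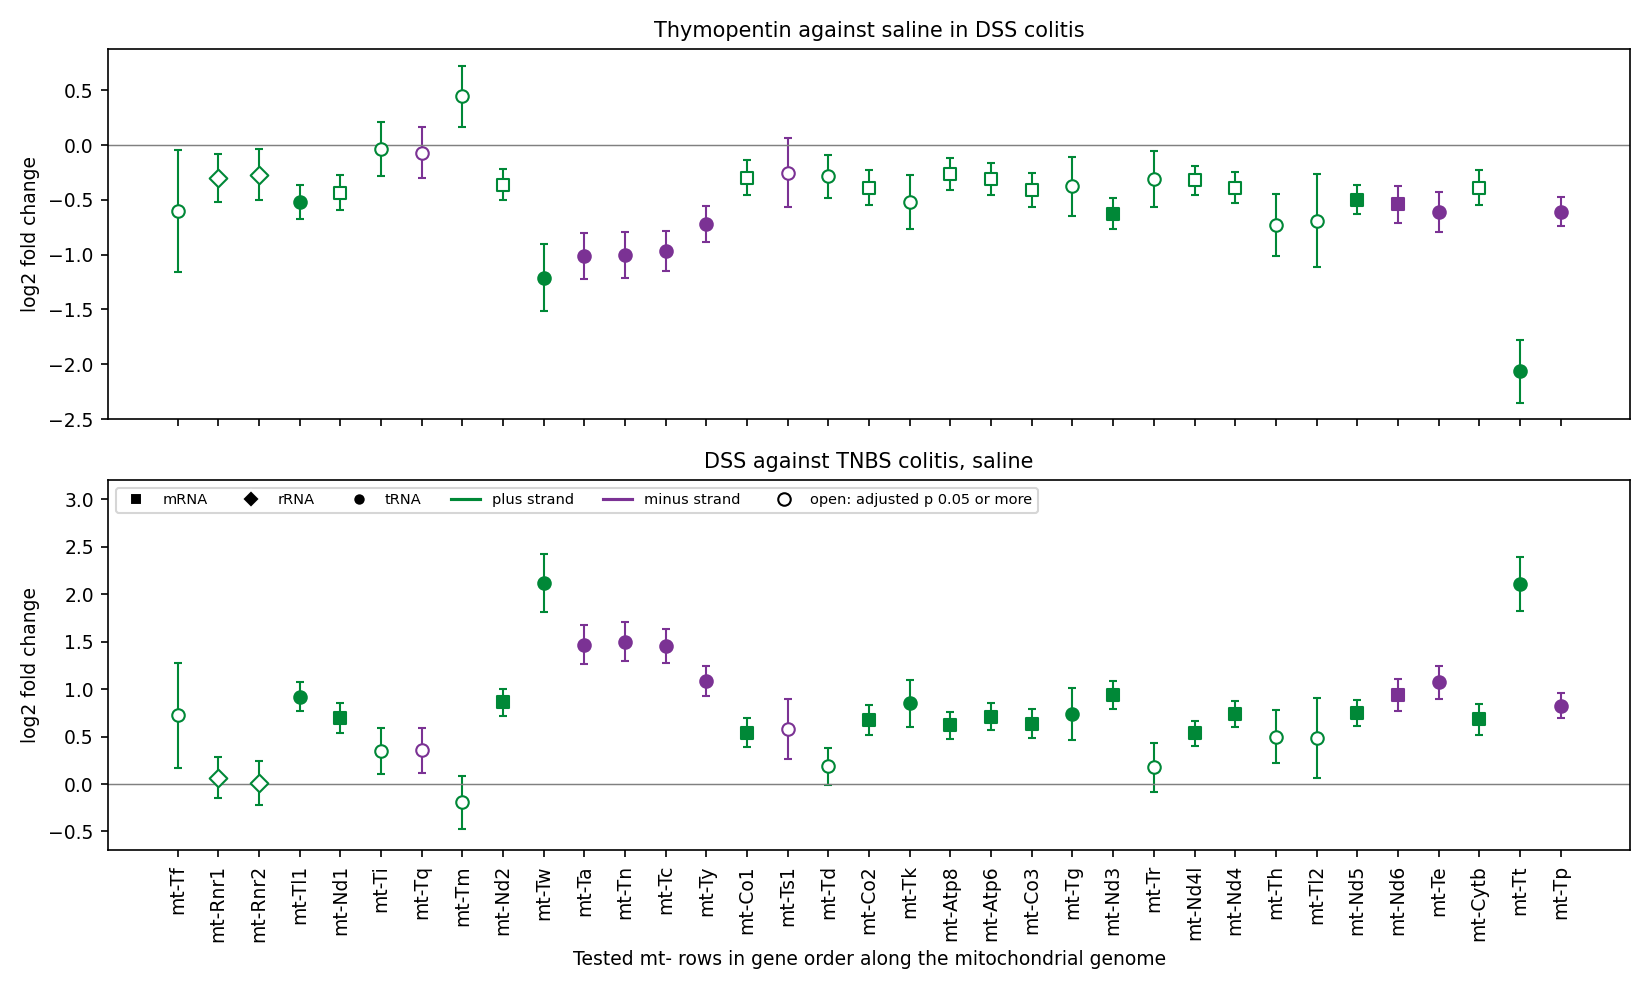
log2 fold change (points, whiskers SE) of the 35 tested mt- rows in gene order, for thymopentin against saline in DSS colitis (top) and for DSS against TNBS in the saline groups (bottom); colour gives the strand and shape the kind of RNA. mt-Tt, mt-Tw, mt-Ta, mt-Tn and mt-Tc lie farthest from 0 in both panels, which share the DSS saline libraries.

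Nduf genes were also mostly higher in DSS than in TNBS colitis in the saline groups, by less. Of the 46 tested rows, 26 were called higher and 3 lower, beside 15.2% and 31.5% of all genes, and the median log2 fold change was 0.36 against -0.14 over all genes. Groups did not overlap for 38 of the 46, or 82.6%, beside 56.5% of all genes. Of these, 35 were higher and 3 lower in DSS, where 18.8% of all genes were higher and 37.7% lower. Among the 36 subunits of complex I, 24 rose and 2 fell. Among the assembly factors, 1 of 8 rose.

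The core subunits, which carry out electron transfer, did not move together. Ndufv2, an iron-sulfur subunit of the NADH-binding module, had 66.6, 55.2 and 56.8 FPKM in TNBS saline and 103, 99.9 and 101 FPKM in DSS saline. The groups were well separated (log2 fold change 0.76, SE 0.09, adjusted p = 0.000163). Ndufs1, the large iron-sulfur subunit of the same module, had 14.7, 13.3 and 17.9 FPKM against 9.52, 9.31 and 9.41 FPKM. It went the other way, with every DSS library below every TNBS library (-0.63, SE 0.10, adjusted p = 0.000746).

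Ndufs7 (0.42), Ndufs3 (0.22) and Ndufs8 (0.52), iron-sulfur or structural subunits of the ubiquinone-reducing module, were higher, though these 3 calls were lost after rescaling to the rows that are not mt-. Ndufs3 was lost in 10 alternatives and Ndufs8 in 11, and Ndufs8 stood at 0.32 without the first DSS saline library (adjusted p = 0.157). Ndufv1, the flavin-bearing subunit that oxidises NADH, was not called (-0.17, SE 0.13, adjusted p = 0.318), and its libraries overlapped, at 28.9, 26.5 and 34.0 FPKM against 22.3, 32.3 and 25.0 FPKM.

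Accessory subunits, which surround the core and are needed for assembly and stability, moved in one direction: 20 of 29 rose, 0 fell, and all 29 values were positive. Ndufa5 had the largest, with 44.8, 39.6 and 44.8 FPKM in TNBS saline and 138, 69.8 and 77.9 FPKM in DSS saline (1.06, SE 0.21, adjusted p = 0.00223). The groups did not overlap, but the first DSS saline library was well above the other 2. Ndufb4 (0.83, adjusted p = 0.000948), Ndufc1 (0.77, adjusted p = 0.00157) and Ndufb7 (0.67, adjusted p = 0.000462), subunits of the membrane arm, came next. Ndufa6, Ndufv3, Ndufa13, Ndufa12, Ndufa2, Ndufb6, Ndufa11, Ndufb2, Ndufa8 and Ndufs5 rose by 0.54 to 0.65. Ndufab1, which is also the acyl carrier protein of mitochondrial fatty acid synthesis, stood at 12.6, 11.6 and 12.4 FPKM against 14.3, 11.3 and 12.3 FPKM and overlapped (0.05, SE 0.09, adjusted p = 0.711).

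Assembly factors differed little. Ndufaf3, which acts early in building the ubiquinone module, was higher in DSS saline (0.45, SE 0.17, adjusted p = 0.0463), a call that was lost without the first DSS saline library (adjusted p = 0.164). Ndufaf8, a partner of Ndufaf5, had 0.19 (adjusted p = 0.0848) and Ndufaf2 had 0.11 (adjusted p = 0.297). Ndufaf1, Ndufaf5 and Ndufaf6 lay between -0.05 and 0.08, and Ndufaf7, at -0.17 (adjusted p = 0.169). Ndufaf4 ranged from 1.62 to 6.93 FPKM within DSS saline and was not called (-0.16, adjusted p = 0.795). Ndufa4, a subunit of cytochrome c oxidase in spite of its name, was lower in DSS saline, at 43.1, 42.6 and 42.8 FPKM against 65.6, 51.3 and 55.1 FPKM (-0.40, SE 0.12, adjusted p = 0.0211). Median-ratio rescaling gave it an adjusted p of 0.104.

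The number of Nduf calls between the saline groups was 24 to 30 when single libraries were left out, and 27 without the first DSS saline library. Rescaling to the rows that are not mt- moved the median of all genes from -0.14 to -0.28 and left 17 Nduf rows higher and 4 lower. Median-ratio rescaling gave 34 higher and 1 lower. Over all genes, 2090 higher and 4341 lower calls became 2687 and 3316 after median-ratio rescaling.

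Transcript length was related to these differences over the whole table. Lengths are those of a gene's longest coding transcript in the annotation, or of its longest transcript where it has no coding one. Among all tested genes under 1000 bases, 21.4% were higher and 18.2% lower in DSS saline, with a median of 0.05, while at 2000 bases or more 12.2% were higher and 38.1% lower, with a median of -0.22. Most Nduf transcripts are short. The 23 Nduf rows under 1000 bases had a median of 0.42, with 17 higher and 1 lower, and the 7 rows of 2000 bases or more a median of 0.05, with 1 higher and 1 lower. Across the 46 Nduf rows Spearman's rho between length and log2 fold change was -0.32, and across all 13751 rows outside mt- with a length it was -0.22. Genes are not independent replicates, and the part of length in the result was not tested.

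The promoters of 40 of the 47 Nduf rows were matched by symbol in RefSeq (GRCm38.p6), in windows of 250 bases before to 50 after the transcription start. NRF1 (nuclear respiratory factor 1) is a known activator of nuclear genes for respiratory subunits, and a shortened form of its motif, CGCNTGCGC, was searched on both strands. It occurred in 10 of the 40 Nduf promoters, or 25%, and in 6.47% of all 27025 promoters. A shortened YY1 motif, AAGATGGCG, occurred in 6 (15%) against 1.49% of all, and an ETS motif, CCGGAAG, in 6 (15%) against 9.12%, each on either strand. CCAAT occurred in 14 (35%) against 37.9%, and the estrogen-related receptor motif TCAAGGTCA in 0 against 0.407%. These motifs and the promoters printed here were chosen after expression values had been seen, and a match is a description of letters only.

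Ndufb4 and Ndufa8 are shown as Nduf rows called in the saline groups whose promoter holds the NRF1 motif, with the motif in capitals and 250 bases before the start printed in the direction of transcription. The regions are chr16:37654369-37654618 and chr2:36049339-36049588, both on the minus strand of GRCm38.p6. They had the smallest adjusted p among such rows. The Ndufb4 window holds the motif at 3 places and the Ndufa8 window at 2.
Ndufb4: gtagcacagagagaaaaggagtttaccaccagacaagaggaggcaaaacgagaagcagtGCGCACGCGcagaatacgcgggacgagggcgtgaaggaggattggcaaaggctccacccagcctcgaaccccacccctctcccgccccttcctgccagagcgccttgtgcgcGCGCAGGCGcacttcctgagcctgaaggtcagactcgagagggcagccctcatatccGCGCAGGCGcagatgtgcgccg
Ndufa8: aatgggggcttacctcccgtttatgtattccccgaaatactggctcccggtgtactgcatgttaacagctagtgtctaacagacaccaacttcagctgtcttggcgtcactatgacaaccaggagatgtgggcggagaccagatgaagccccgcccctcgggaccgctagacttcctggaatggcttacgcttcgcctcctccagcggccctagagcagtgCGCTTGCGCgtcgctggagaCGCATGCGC

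Other genes of the respiratory chain were described from lists chosen by function, beside 15.2% of all genes called higher and 31.5% lower between the saline groups. Of the 12 tested genes listed for the nuclear part of complex IV, 9 were higher and 0 lower, among them Cox5b (0.83, adjusted p = 0.00011). This list leaves out Ndufa4, which was called lower, as given above. Of the 9 nuclear complex III genes 4 were higher and 1 lower, with Uqcrq at 0.80 (adjusted p = 0.000896), and of the 16 genes of ATP synthase 8 were higher and 2 lower, with Atp5e at 0.93 (adjusted p = 0.000346). Complex II, which has no mitochondrial subunit, had 0 of 6 higher and 2 lower, Sdha (-0.73, adjusted p = 0.00361) and Sdhd (-0.70, adjusted p = 0.00148), a share of 33.3% that lies near that of all genes. List medians were 0.44 for complex IV, 0.27 for ATP synthase, 0.09 for complex III and 0.01 for complex II, against -0.14 over all genes.

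Genes that maintain and transcribe the mitochondrial genome had calls near the background. Of 23 tested, 2 were higher and 9 lower, or 47.8% called beside 46.6% of all genes, and the median was -0.18 against -0.14. Among the lower were Tfam, which packages mitochondrial DNA (-0.55, adjusted p = 0.00431), Tfb2m, a mitochondrial transcription factor (-0.57, adjusted p = 0.000984), and the helicase Twnk (-0.53, adjusted p = 0.0019). Regulators of mitochondrial biogenesis had 0 of 8 higher and 4 lower, or 50% called, with Yy1 at -0.56 (adjusted p = 0.000401). Genes for other mitochondrial proteins had 0 of 20 higher and 8 lower, or 40% called, with the chaperone Hspd1 at -1.28 (adjusted p = 0.000923) and the fusion protein Opa1 at -0.58 (adjusted p = 0.000819). Of 8 further complex I assembly genes, 1 was higher, Ecsit (0.39, adjusted p = 0.011), and 2 lower, Tmem186 (-0.45, adjusted p = 0.0055) and Acad9 (-0.35, adjusted p = 0.00702).

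Markers of other cells moved with the same comparison, in which 15.2% of all genes were called higher and 31.5% lower. Smooth muscle markers summed to 880.1 to 2701 FPKM in TNBS saline and 3491 to 4064 FPKM in DSS saline, with 8 of 10 called higher. Neuron and glia markers summed to 10.6 to 12.2 FPKM and 33.2 to 43.2 FPKM, with all 6 tested higher, and stromal markers to 68.4 to 75.2 FPKM and 138 to 167 FPKM, with 5 of 6 higher. Leukocyte markers ran from 8.30 to 79.7 FPKM and from 45.1 to 99.2 FPKM, with 5 of 8 higher. Colon epithelium markers summed to 7193 to 9004 FPKM in TNBS saline and 5004 to 5938 FPKM in DSS saline. Of these 5 of 13 were called lower, or 38.5%, near the share of all genes called lower. Fat markers ran from 2.43 to 41.6 FPKM and from 14.7 to 47.3 FPKM, with 1 of 3 tested higher. Of these markers only Ucp1, of the fat list, was at 0 throughout a group, TNBS saline. The part of these markers in the mt- and Nduf differences was not tested.

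**Figure D4:**
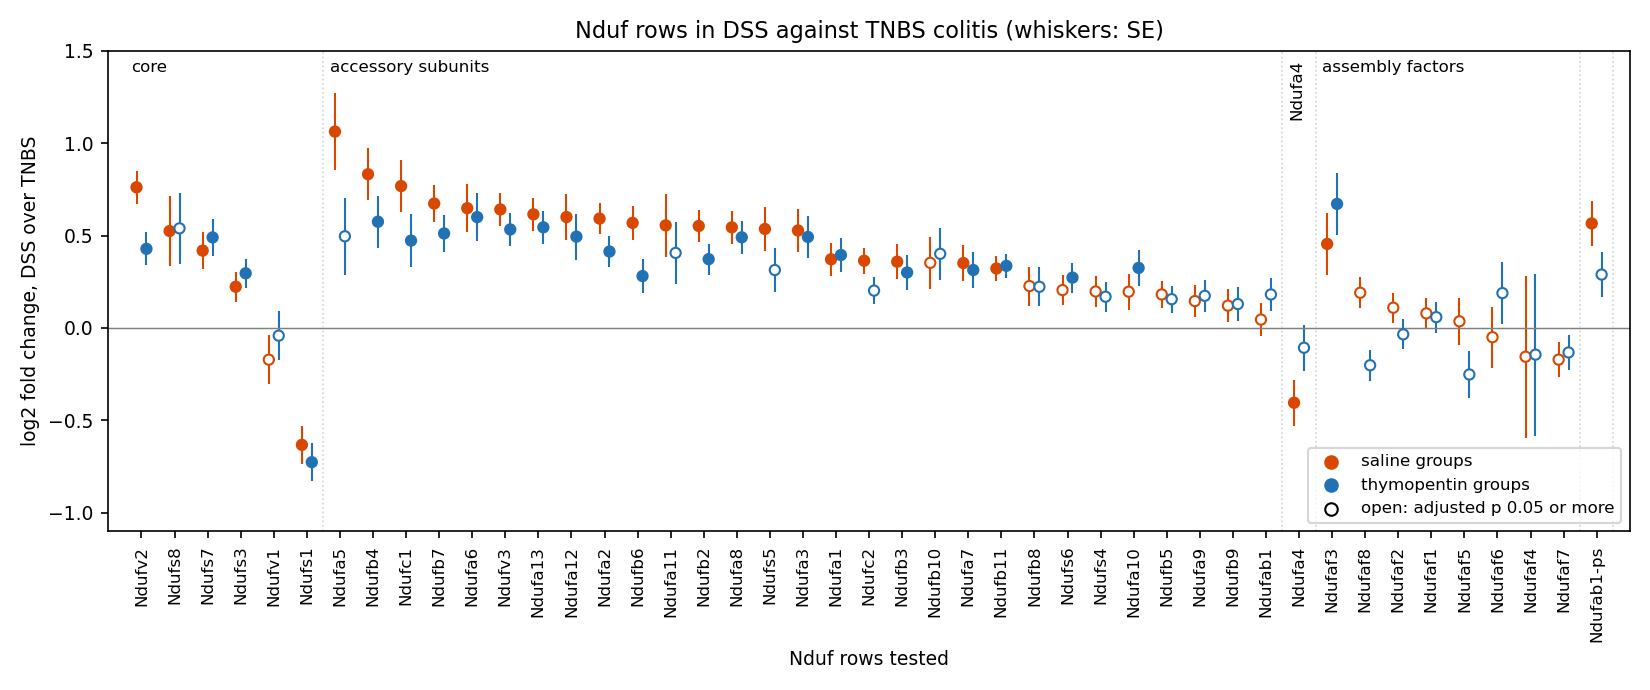
log2 fold change of DSS over TNBS (points, whiskers SE) for tested Nduf rows, in the saline groups (orange) and the thymopentin groups (blue), ordered by role. Accessory subunits lie above 0 in both, while Ndufs1 lies below 0 in both, at -0.63 and -0.73.

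The same models were compared in the thymopentin groups, which are other libraries. Here 14 of 35 mt- rows were higher in DSS and 0 lower, beside 11% of all genes called higher, 16.5% called lower and 27.5% in either direction. Groups were separate for 21 of the 35, or 60%, all higher in DSS, beside 46.2% of all genes, 18.7% higher and 27.6% lower. The mRNAs mt-Nd2 (0.66), mt-Nd6 (0.64), mt-Nd4 (0.46), mt-Atp6 (0.46), mt-Nd5 (0.45) and mt-Nd3 (0.43) were called, but after quantile normalization mt-Nd2, mt-Nd4, mt-Nd5 and mt-Nd6 turned negative. mt-Co1 had 22628, 19384 and 26217 FPKM in TNBS thymopentin and 26991, 27995 and 31717 FPKM in DSS thymopentin. These groups did not overlap, by a narrow margin, and the difference was not called (0.35, SE 0.16, adjusted p = 0.115).

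Of the tRNAs, 8 were called in the thymopentin groups, led by mt-Tw (1.28, adjusted p = 0.0124), mt-Tl1 (1.216, adjusted p = 0.000717), mt-Tn (0.95, adjusted p = 0.00908), mt-Tc (0.90, adjusted p = 0.00592) and mt-Ta (0.87, adjusted p = 0.0128). mt-Tt, by contrast, had 4.64, 2.95 and 4.28 FPKM in TNBS thymopentin and 3.37, 6.94 and 5.32 FPKM in DSS thymopentin. Its libraries overlapped (0.30, SE 0.29, adjusted p = 0.463). The number of mt- calls fell from 14 to 5 without the second and 6 without the third DSS thymopentin library, and to 9 without the first or the second TNBS thymopentin library.

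Nduf rows in the thymopentin groups had 22 calls higher and 1 lower of 46, beside 11% of all genes called higher and 16.5% lower. Their median was 0.31 against -0.04 over all genes. Groups were separate for 33, or 71.7%, beside 46.2% of all genes. Of these, 31 were higher and 2 lower in DSS, where 18.7% of all genes were higher and 27.6% lower. Ndufs1 was again lower, at 9.63, 9.25 and 9.74 FPKM in DSS against 15.1, 17.5 and 16.8 FPKM in TNBS, with no overlap (-0.73, SE 0.10, adjusted p = 0.00128). Of the accessory subunits 18 of 29 rose, with Ndufa6 (0.60, adjusted p = 0.00863) and Ndufb4 (0.57, adjusted p = 0.0138) at the top, and of the assembly factors Ndufaf3 alone of 8 (0.67, adjusted p = 0.0154). Rescaling to the rows that are not mt- gave 13 higher and 4 lower in place of 22 and 1. The 23 calls became 15 without the second and 13 without the third DSS thymopentin library, and 14 without the third TNBS thymopentin library. Smooth muscle markers overlapped in these groups, at 1826 to 2591 FPKM in TNBS and 1559 to 2337 FPKM in DSS, with 0 of 10 called by limma and 0 at an unadjusted p under 0.05. Neuron and glia markers had 0 of 6 called by limma, with 1 at an unadjusted p under 0.05, and stromal markers 1 of 6 higher. Leukocyte markers, at 5.87 to 51.2 FPKM in TNBS and 30.5 to 80.1 FPKM in DSS, had 5 of 8 higher and a median log2 fold change of 0.96. Colon epithelium markers, at 6799 to 7630 FPKM and 5033 to 6228 FPKM, had 2 of 13 higher and 4 lower and a median of -0.58. Fat markers had 0 of 3 tested called by limma and a median of 0.06. The part of these cells in the mt- and Nduf differences was not tested.

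Next, thymopentin was set against saline inside each model. In DSS colitis mitochondrial RNAs were lower with thymopentin: 12 of 35 mt- rows fell and 0 rose, beside 4.3% of all genes called lower, 12.7% called higher and 17% called in either direction. Groups were separate for 25 of the 35, 24 of them lower, beside 39.8% of all genes separate, 28.3% in the higher and 11.5% in the lower direction. The median was -0.41 over the mt- rows and 0.12 over all genes. The DSS saline libraries also enter the comparison of the models in the saline groups, so these results share 3 libraries.

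Among the called rows, mt-Tt and the tRNAs between mt-Nd2 and mt-Co1 fell most. mt-Tt had 31.5, 20 and 22.4 FPKM in DSS saline and 3.37, 6.94 and 5.32 FPKM in DSS thymopentin. Every treated library was far below every saline library, within the range of the TNBS groups (log2 fold change -2.06, SE 0.29, adjusted p = 0.00229). mt-Tw had 62.5, 34.1 and 58.3 FPKM against 21.0, 23.0 and 19.3 FPKM, without overlap (-1.21, SE 0.30, adjusted p = 0.0248).

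mt-Ta had 197, 178 and 172 FPKM in DSS saline and 67.7, 113.5 and 94.5 FPKM in DSS thymopentin, with separate groups (-1.01, SE 0.21, adjusted p = 0.0117). mt-Tn (-1.0, SE 0.21, adjusted p = 0.0124) and mt-Tc (-0.97, SE 0.18, adjusted p = 0.00768) fell by similar amounts. mt-Ty (-0.72), mt-Te (-0.61), mt-Tp (-0.61) and mt-Tl1 (-0.52) were also called. Of the tRNAs read from the minus strand 6 of 8 were called lower, and of those read from the plus strand 3 of 12. Over all genes 4.3% were called lower. The strands also differ in level, with median tRNA means of 122 FPKM on the minus and 7.27 FPKM on the plus strand. The part of level in these counts was not tested.

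In the authors' deposited table of selected DSS genes, 5 of the 84 members appear, all tRNAs, beside 2326 of all 55335 rows. That selection rests on the same libraries as used here. Their log2 fold changes in the authors' deposited table are -2.27 for mt-Tt, -1.35 for mt-Tw, -1.14 for mt-Ta, -1.14 for mt-Tn and -1.1 for mt-Tc. The authors' deposited table for TNBS, with 1173 selected rows, holds no member.

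**Figure D5:**
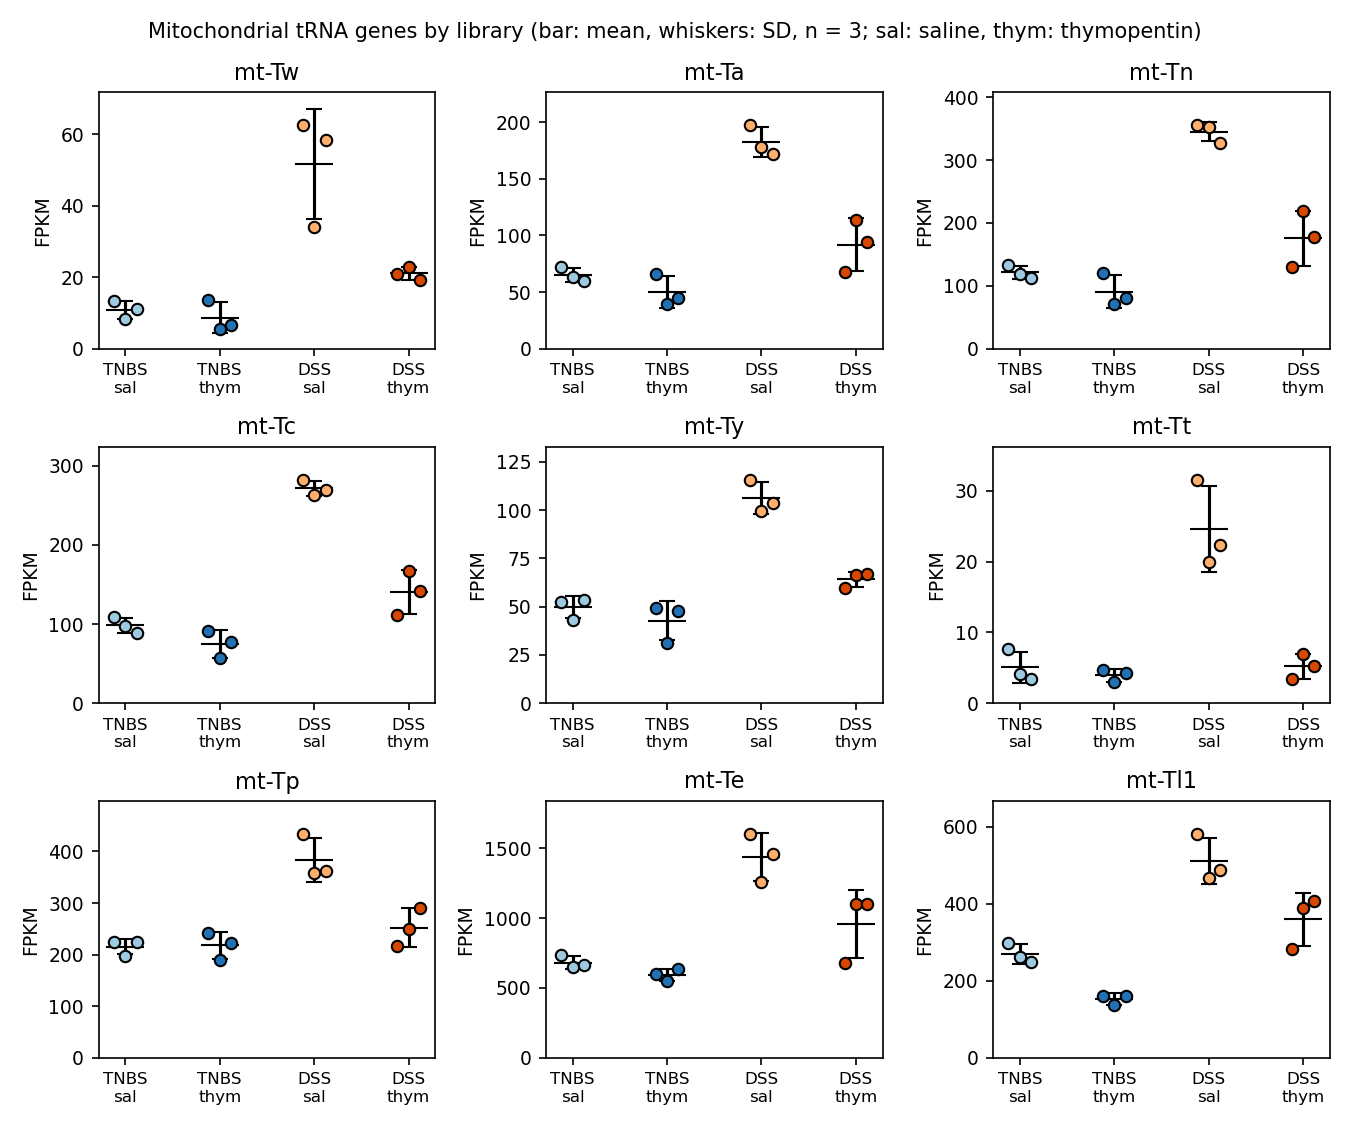
FPKM of the 9 mitochondrial tRNA genes called for thymopentin against saline in DSS colitis, by group; points are libraries, bars means and whiskers SD (n = 3). For each of the 9, every DSS saline library is above every DSS thymopentin library, and mt-Tt in DSS thymopentin lies within the range of the TNBS groups, 2.95 to 7.62 FPKM.

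Among the mRNAs 3 of 13 were called in DSS, all of complex I. mt-Nd3 had 2459, 2025 and 1987 FPKM in DSS saline and 1244, 1411 and 1536 FPKM in DSS thymopentin. The groups did not overlap (-0.62, SE 0.14, adjusted p = 0.0182). mt-Nd5 (-0.50, SE 0.13, adjusted p = 0.0315) and mt-Nd6 (-0.54, SE 0.17, adjusted p = 0.0489) were close to the threshold. For mt-Nd6 the values were 6906, 5585 and 6449 FPKM against 3237, 5021 and 4975 FPKM, and the first treated library was lowest. All 13 mRNAs had negative values, from -0.62 to -0.27 (mt-Atp8), and 10 of 13 had an unadjusted p under 0.05.

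The rRNAs mt-Rnr1 (-0.30, SE 0.22, adjusted p = 0.368) and mt-Rnr2 (-0.27, SE 0.23, adjusted p = 0.442) were not called. Of the 12 calls in DSS, 4 were left without the first DSS saline library, 6 without the third DSS saline library, 6 without the first and 5 without the second DSS thymopentin library. mt-Ta, mt-Tc, mt-Tn and mt-Tt kept their calls in all alternatives run, with the highest adjusted p at 0.039. Of the others, mt-Nd6 was lost in 16 alternatives, mt-Te and mt-Tl1 in 13 each, mt-Nd5 in 9, mt-Tw in 6, mt-Nd3 in 5, and mt-Tp and mt-Ty in 2 each. Without the first DSS thymopentin library mt-Nd6 stood at -0.33 and mt-Te at -0.38.

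Nduf genes changed little with thymopentin in DSS. Of 46 tested rows, 3 fell and 0 rose, or 6.52% beside 17% of all genes, and the median was -0.12 against 0.12 over all genes. Groups were separate for 14, or 30.4%, beside 39.8% of all genes. Of these, 13 were lower and 1 higher, where 11.5% of all genes were lower and 28.3% higher. Ndufv2 went from 103, 99.9 and 101 FPKM in DSS saline to 84.7, 80.1 and 78.2 FPKM, without overlap (-0.32, SE 0.09, adjusted p = 0.0366). Ndufa2, a small accessory subunit, fell from 156, 156 and 144 FPKM to 112, 125 and 132 FPKM (-0.30, SE 0.08, adjusted p = 0.0336). Ndufb6, of the membrane arm, fell from 120, 105 and 113 FPKM to 95.0, 90.9 and 87.0 FPKM (-0.30, SE 0.09, adjusted p = 0.0469).

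Ndufa5 had the lowest value, -0.55, and was not called (SE 0.21, adjusted p = 0.0947). Ndufc1 followed with -0.43 (adjusted p = 0.0589), and Ndufaf6 had the highest value with 0.30 (adjusted p = 0.226). The 3 Nduf calls became 0 without the first or the third DSS saline or the second DSS thymopentin library, 1 without the first or the third DSS thymopentin or the first TNBS thymopentin library, and 5 without the second DSS saline library. Median-ratio rescaling, under which the median of all genes was 0.01 in place of 0.12, gave 10 lower and 0 higher. Over all genes it turned 1753 higher and 593 lower calls into 867 and 873.

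In the lists of other respiratory complexes and mitochondrial genes, 0% to 12.5% of the tested members were called in DSS, beside 17% of all genes. Twnk (0.63, adjusted p = 0.00427) and Polg2, an accessory subunit of the mitochondrial DNA polymerase (0.63, adjusted p = 0.0244), were higher with thymopentin, 2 of 23 genes for mitochondrial transcription and RNA processing, and 0 were lower. Uqcrq (-0.52, adjusted p = 0.0261), Cox7b (-0.37, adjusted p = 0.0275) and Atp5g3 (-0.34, adjusted p = 0.0453) were the calls in complexes III, IV and V, and complex II had 0 of 6 with limma, with 1 at an unadjusted p under 0.05. The lists for glycolysis, at 22.2% called, and for the mitochondrial stress response, at 18.2%, lay above that share. In glycolysis 1 of 18 rose, the lactate transporter Slc16a1 (0.78, adjusted p = 0.00827), and 3 fell, with Hk2, a hexokinase, at -1.13 (adjusted p = 0.00136).

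Smooth muscle markers fell with thymopentin in DSS, from 3491 to 4064 FPKM in sum to 1559 to 2337 FPKM. Of these 5 of 10 were called lower, beside 4.3% of all genes. Neuron and glia markers fell from 33.2 to 43.2 FPKM to 14.8 to 24.2 FPKM, with 5 of 6 called, and stromal markers from 138 to 167 FPKM to 118 to 136 FPKM, with 2 of 6 called. Epithelial markers ran from 5004 to 5938 FPKM and from 5033 to 6228 FPKM. Of these 2 of 13 were called higher, or 15.4%, near the 12.7% of all genes called higher. Fat markers summed to 14.7 to 47.3 FPKM in DSS saline and 4.30 to 9.62 FPKM in DSS thymopentin. Of 3 tested, 0 were called by limma and 2 had an unadjusted p under 0.05, with a median of -1.72. Leukocyte markers ran from 45.1 to 99.2 FPKM and from 30.5 to 80.1 FPKM, with 0 of 8 called. Striated muscle markers ran from 6.48 to 8.46 FPKM and from 9.31 to 13.7 FPKM, with 1 of 2 tested called higher. Outside the fat and striated muscle lists, no marker was at 0 throughout either group. The part of these cells in the mitochondrial values was not tested.

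In TNBS colitis thymopentin left most members within the spread. The call was mt-Tl1, 1 of 35 mt- rows or 2.86%, beside 0.667% of all genes, 0.283% higher and 0.384% lower. It had 299, 262 and 248 FPKM in TNBS saline and 162, 136 and 161 FPKM in TNBS thymopentin. The groups did not overlap (-0.81, SE 0.15, adjusted p = 0.0468). With the replicate number as a block its adjusted p was 0.125, which ends the call. It was also lost without any single TNBS library, without the second or the third DSS saline library and without the second or the third DSS thymopentin library, with an adjusted p of up to 0.180 (without the first TNBS saline library). Groups were separate for 4 of the 35 mt- rows, or 11.4%, and for 8 of the 46 Nduf rows, or 17.4%, beside 18.8% of all genes. All 4 mt- rows were lower, and of the Nduf rows 2 were higher and 6 lower, beside 12.1% of all genes in the higher and 6.75% in the lower direction.

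All 13 mRNAs had small negative values in TNBS, from -0.25 for mt-Nd6 to -0.03 for mt-Co3, and 0 were called by limma or had an unadjusted p under 0.05. mt-Nd6 had 3514, 3225 and 3122 FPKM in TNBS saline and 2762, 2722 and 2819 FPKM in TNBS thymopentin, so its groups were separate (SE 0.17, adjusted p = 0.602). Of 46 Nduf rows 0 were called by limma, and 1 had an unadjusted p under 0.05: Ndufa4, with 65.6, 51.3 and 55.1 FPKM against 38.3, 38.5 and 46.0 FPKM (-0.48, SE 0.12, adjusted p = 0.129). Medians were -0.19 for mt- and -0.07 for Nduf rows against 0.03 over all genes. Ndufaf7 and the other assembly factors lay between -0.32 (Ndufaf4) and 0.15 (Ndufaf8). Stromal markers had 2 of 6 called higher, beside 0.283% of all genes, and a median of 0.56. Smooth muscle markers had 0 of 10 called and a median of 0.51, with all 10 positive. Neuron and glia markers had 0 of 6 called, with 3 at an unadjusted p under 0.05, and a median of 0.41. Leukocyte markers had 0 of 8 called and a median of -0.29, and colon epithelium markers 1 of 13 higher and a median of -0.25. The part of these markers was not tested.

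Whether the response to thymopentin differed between the models was tested as the difference of the 2 responses, DSS minus TNBS. Of the mt- rows 1 of 35 was called, mt-Tt, beside 5.15% of all genes with 2.73% higher and 2.42% lower, and of the Nduf rows 0 of 46, with 3 at an unadjusted p under 0.05. mt-Tt responded by -2.06 in DSS and by -0.25 in TNBS, a difference of -1.81 (SE 0.41, adjusted p = 0.0347). The difference was not called with the replicate number as a block (adjusted p = 0.0594) with no filter on low values, or without the first or the third DSS saline, the first or the third DSS thymopentin, the second or the third TNBS saline, or the first or the third TNBS thymopentin library, and its highest adjusted p was 0.0754. The mt- rows with the next smallest p were mt-Tp at -0.62 (SE 0.19, adjusted p = 0.0879) and mt-Nd3 at -0.51 (SE 0.20, adjusted p = 0.173). For mt-Tw the difference was -0.83 (SE 0.43, adjusted p = 0.293) and for Ndufaf8, the Nduf row with the smallest p, -0.39 (SE 0.12, adjusted p = 0.0837). Medians were -0.30 over the mt- rows, -0.04 over the Nduf rows and 0.11 over all genes tested.

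Markers of other cells moved with the difference, in which 2.73% of all genes were called higher and 2.42% lower. Neuron and glia markers had 4 of 6 called lower and a median of -1.05, stromal markers 2 of 6 lower and a median of -0.76, and smooth muscle markers 1 of 10 lower, with all 10 negative and a median of -1.40. Colon epithelium markers had 1 of 13 called higher and a median of 0.30. Fat markers had 0 of 3 tested called by limma and a median of -1.04, and of the striated muscle markers 1 of 2 tested was called higher. The part of these markers in the difference for mt-Tt was not tested.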

How the data were processed

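The 12 libraries of colon RNA from mice with colitis were read by strand-specific RNA sequencing, per the labels. The authors deposited a table of FPKM per gene, and tables of selected genes with log2 fold changes and p-values with FDR of thymopentin against saline, 1 per model. FastQC, STAR 2.5, Cuffnorm, DESeq 1.22.1 and mm9 are named, per the submitters' processing notes, with no role or order. Read depth per library is not stated there, so no counting intervals could be given.

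From the deposited FPKM, log2(FPKM + 1) was fitted with limma 3.58.1 (R 4.3.3) as 4 group means, with a variance trend and 8 residual degrees of freedom, over the 13794 genes with a mean of at least 1 FPKM. All comparisons used this fit, with Benjamini-Hochberg adjustment over all genes tested and calls at an adjusted p under 0.05. Fold changes are on the log2(FPKM + 1) scale, which understates changes of low genes. Summaries and plots used Python 3.11.15, pandas 2.3.3, numpy 2.4.6 and matplotlib 3.10.9.

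Alternatives were other pseudocounts, filters and scalings (median ratio, quantile, rows that are not mt-), array weights, no trend, only the groups compared, a replicate block, and leaving out each library. Named are all mitochondrial mRNAs and rRNAs, the tRNAs with the highest and lowest mean, core subunits, Ndufa4, Ndufa4l2, Ndufab1 and the Ndufaf rows, the 4 highest and 4 lowest Nduf rows and called members in each comparison, and up to 3 genes of each further list by p. The values of 1 Nduf row are not reported here by name, though counts and medians include it. Other members named were chosen after their values were seen. The members and lists were chosen with earlier results of these data known. Same-numbered TNBS libraries deviated together from their group means (r = 0.124, 0.268 and 0.476), though TNBS saline 2 also did so with TNBS thymopentin 1 (r = 0.287). The main comparisons use no block; a fit with the number as a block is an alternative, given beside a TNBS result whose call it changes. The labels do not say what the numbers stand for. mt sequences came from GENCODE vM21 and promoters from RefSeq (GRCm38.p6), and no coordinates of another build were used.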

Additional observations from a re-analysis of the deposited data

Results flagged for a closer look

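The response of mt-Tt, the mitochondrial threonine tRNA, to thymopentin was called different between DSS and TNBS colitis in the main fit. The difference, DSS minus TNBS, was -1.81 on the log2 scale (SE 0.41, adjusted p = 0.0347 by the limma interaction contrast). In DSS all 3 treated libraries, at 3.37, 6.94 and 5.32 FPKM, were below the saline libraries at 31.5, 20 and 22.4 FPKM. In TNBS the treated libraries, at 4.64, 2.95 and 4.28 FPKM, overlapped with the saline libraries at 7.62, 4.17 and 3.46 FPKM. The call was lost in 10 alternatives: with the replicate block (adjusted p = 0.0594), with no filter (0.0754) and in 8 of the 12 fits that left out a library. Neuron and glia markers (4 of 6 called lower), stromal markers (2 of 6) and smooth muscle markers (1 of 10) moved with the same contrast. Over all genes 2.42% were called lower there and 5.15% in either direction. mt-Tt was 1 call of 35 tested mt- rows, or 2.86%, and 0 of 46 Nduf rows were called by limma. The part of the markers in the difference for mt-Tt was not tested.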

How the results depend on the processing

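Of 107 calls of members over the 5 comparisons, 46 were kept under every alternative run. Under quantile normalization signs turned for mt-Atp8 (-0.0386) and mt-Nd4l (-0.17) between the saline groups, and for mt-Nd2 (-0.0234), mt-Nd4 (-0.17), mt-Nd5 (-0.0104) and mt-Nd6 (-0.0176) between the thymopentin groups. By its construction this scaling fixes the value at each rank. For the other changes the cause was not tested.

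Counts of mt- calls moved as follows. In TNBS thymopentin against saline, 1 call became 7 with array weights and 0 with a filter at a mean of 0.1 FPKM, with no filter, with only the groups compared and with the replicate block, and 0 to 1 when single libraries were left out. In DSS thymopentin against saline, 12 became 6 with no filter and 4 to 12 without single libraries. For the difference, 1 became 4 with array weights, 0 with no filter or the replicate block, and 0 to 2 without single libraries (2 without the second TNBS thymopentin library). Between the saline groups 24 became 15 with no filter and 12 with quantile normalization. Between the thymopentin groups 14 became 23 with array weights, 9 with the 0.1 FPKM filter, 6 with no filter, 8 with only the groups compared, 7 with quantile normalization, 8 after rescaling to rows that are not mt-, and 5 to 15 without single libraries.

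Counts of Nduf calls moved from 0 to 2 with array weights in TNBS. In DSS, 3 became 8 with array weights, 10 with median-ratio rescaling, 7 with quantile normalization, 1 with no filter, 0 with only the groups compared, 0 with the replicate block, and 0 to 5 without single libraries. For the difference, 0 became 3 with array weights and 1 with quantile normalization. Between the thymopentin groups 23 became 13 to 26 without single libraries. The ratio of the Nduf share in DSS, thymopentin to saline, was 0.978 and became 0.916 over rows that are not mt- and 0.961 without the 20 highest other rows. The ratio of DSS saline to TNBS saline became 1.17 and 1.13.

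In DSS the replicate numbers showed no pairing (r = -0.136, 0.0427 and -0.140). With the block there, the 12 mt- calls became 9. Rescaling to rows that are not mt- moved the median of all genes between the thymopentin groups from -0.04 to -0.18, and their 1524 higher and 2275 lower calls to 984 and 3888. Median-ratio rescaling changed the 376 higher and 334 lower calls of the difference to 277 and 391. Read depth per library is unknown, which limits what can be said of the tRNAs and assembly factors at a few FPKM.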
